A study of Homo sapiens with 28 samples.

Results

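The pentose phosphate pathway enzymes described here are the products of 8 genes, PGLS and PGD of the oxidative branch, RPIA, RPE, TKT and TALDO1 of the non-oxidative branch, and PRPS1 and PRPS2, which turn the ribose 5-phosphate that the pathway makes into PRPP. They were chosen by gene symbol from the 58278 genes of the count table, and all 8 passed the filter on low counts in tumors and in cultures. The counts come from RNA-seq of HCT116 cells, an established human colorectal carcinoma line, which carried a luciferase and GFP label and grew as subcutaneous xenografts in male NOD SCID mice injected at 5 weeks of age. The 16 tumor libraries came from mice gavaged daily for 23 days with vehicle (Control, 3 tumors), with 100 mg/kg/day of Palbociclib, a CDK4 and CDK6 inhibitor (5 tumors), with 150 mg/kg/day of Telaglenastat, a glutaminase inhibitor whose name the labels also spell Telaglenestat (4 tumors), or with both drugs at these doses (Combination, 4 tumors). The other 12 libraries came from cell lines established out of such tumors, 3 lines per treatment, which were kept without drug, so that a culture is named after the treatment of its tumor of origin. Which tumor each line came from is not recorded in the labels, and all groups derive from the same line in the same host strain.

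The pentose phosphate pathway branches off glycolysis at glucose 6-phosphate. Its oxidative branch passes through the lactonase PGLS and the dehydrogenase PGD, gives NADPH for reductive synthesis and for the reduction of glutathione, and ends in ribulose 5-phosphate. In the non-oxidative branch, the isomerase RPIA makes ribose 5-phosphate from ribulose 5-phosphate and the epimerase RPE makes xylulose 5-phosphate from it, and transketolase (TKT) and transaldolase (TALDO1) exchange carbon fragments between these pentoses and the glycolytic sugars in reversible steps. PRPS1 and PRPS2 are closely related PRPP synthetases, and PRPP is the ribose donor for purine, pyrimidine and NAD synthesis, so the pathway is known in tumors as a supplier of NADPH and of nucleotide sugar.

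The libraries held 6273834 to 10617936 counts in tumors and 7198540 to 13815675 in cultures. Libraries differed in how strongly their counts followed the GC content of genes, which was measured as the slope of a gene's log2 level (relative to its mean over all 28 libraries) per standard deviation of GC content. The slope was 0.343 to 0.353 in Control tumors, 0.191 to 0.454 in Palbociclib tumors, -0.291 to -0.205 in Telaglenastat tumors, -0.192 to -0.0647 in Combination tumors and -0.259 to 0.295 in cultures. Palbociclib tumor 2 (0.191), Telaglenastat culture 2 (0.295) and Control culture 2 (-0.197) stood apart from the other libraries of their groups. Fold changes are therefore given as counted and, under the name corrected, with a trend on GC content and transcript length, fitted to each library, taken out. The 10 epithelial markers summed to 2840 to 3420 CPM (counts scaled to library size) in Control tumors, 3090 to 4310 in Palbociclib tumors, 1680 to 1850 in Telaglenastat tumors, 2430 to 2750 in Combination tumors and 1410 to 2710 in cultures. With Telaglenastat 6 of the 9 tested were lower and 1 higher (median log2 fold change -1.09), where 28.5% of all genes were lower and 22.6% higher. With the correction 3 were lower and 0 higher (median -0.29), where 7.42% of all genes were lower. All but CEACAM5 passed the filter, and CEACAM5 was at 0 in Control tumors and in all cultures, and VIL1 in Telaglenastat tumors. The 16 stromal, endothelial and blood cell markers, which can reach the count table through reads of the mouse host, summed to 181 to 225 CPM in Control tumors, 142 to 227 in Palbociclib tumors, 62.0 to 80.4 in Telaglenastat tumors, 121 to 174 in Combination tumors and 7.27 to 29.2 in cultures, with LUM and CDH5 at 0 in every tumor and DCN at 0 in all but Palbociclib tumors. Their part in the values of the 8 enzymes was not tested, and in a bulk tumor fewer cells of a type and less RNA per cell cannot be told apart.

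The 8 genes differ widely in base composition, which bears on every comparison between libraries of unlike GC slope. PGLS (ENSG00000130313.6, chr19:17511629-17521288, plus strand of GRCh38) has the highest GC content, 63.4% over its transcripts in GENCODE 29, followed by TKT (57.7%, chr3:53224707-53256052, minus strand), TALDO1 (55.3%, chr11:747329-765024, plus strand) and PGD (53.8%, chr1:10398592-10420144, plus strand). Below 50% lie RPIA (48.6%, chr2:88691644-88750935, plus strand), PRPS1 (47.6%, chrX:107628424-107651026, plus strand), PRPS2 (47.0%, chrX:12791355-12824222, plus strand) and, lowest, RPE (43.4%, chr2:210002565-210022259, plus strand). The last 60 coding bases of the highest and the lowest gene, before the stop codon and each within 1 exon, show the contrast, with G and C in capitals. They lie at chr19:17521019-17521078 and chr2:210019729-210019788 on the plus strand and hold 38 and 24 G or C.
PGLS: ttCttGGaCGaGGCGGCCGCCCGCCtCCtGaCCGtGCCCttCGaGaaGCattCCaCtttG
RPE: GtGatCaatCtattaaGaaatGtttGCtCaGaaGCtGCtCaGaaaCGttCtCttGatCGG

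Compared per kb of exonic length, PGD was the most abundant of the 8 in Control tumors at 62.1 ± 3.15 CPM per kb (SD, n = 3). TALDO1 (30.9 ± 3.40), PRPS1 (29.5 ± 2.17), TKT (28.4 ± 0.738), PRPS2 (23.5 ± 0.943), RPE (22.8 ± 1.96) and RPIA (21.3 ± 2.73) lay close together on that scale. PGLS was far lower, at 3.09 ± 0.754 CPM per kb, and rested on 62 to 103 counts in a Control tumor and 8 to 18 in a Telaglenastat tumor. The exonic length joins all annotated exons of a gene, and is 9507 bases for TKT, so its level per kb is set low. In the text below a level is in CPM, scaled by TMM over all 28 libraries, while fold changes come from fits of the tumors or the cultures alone. That difference in scaling places ratios of the tumor levels 0.11 (Telaglenastat) and 0.10 (Combination) higher in log2 than the fitted fold changes.

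**Figure D1:**
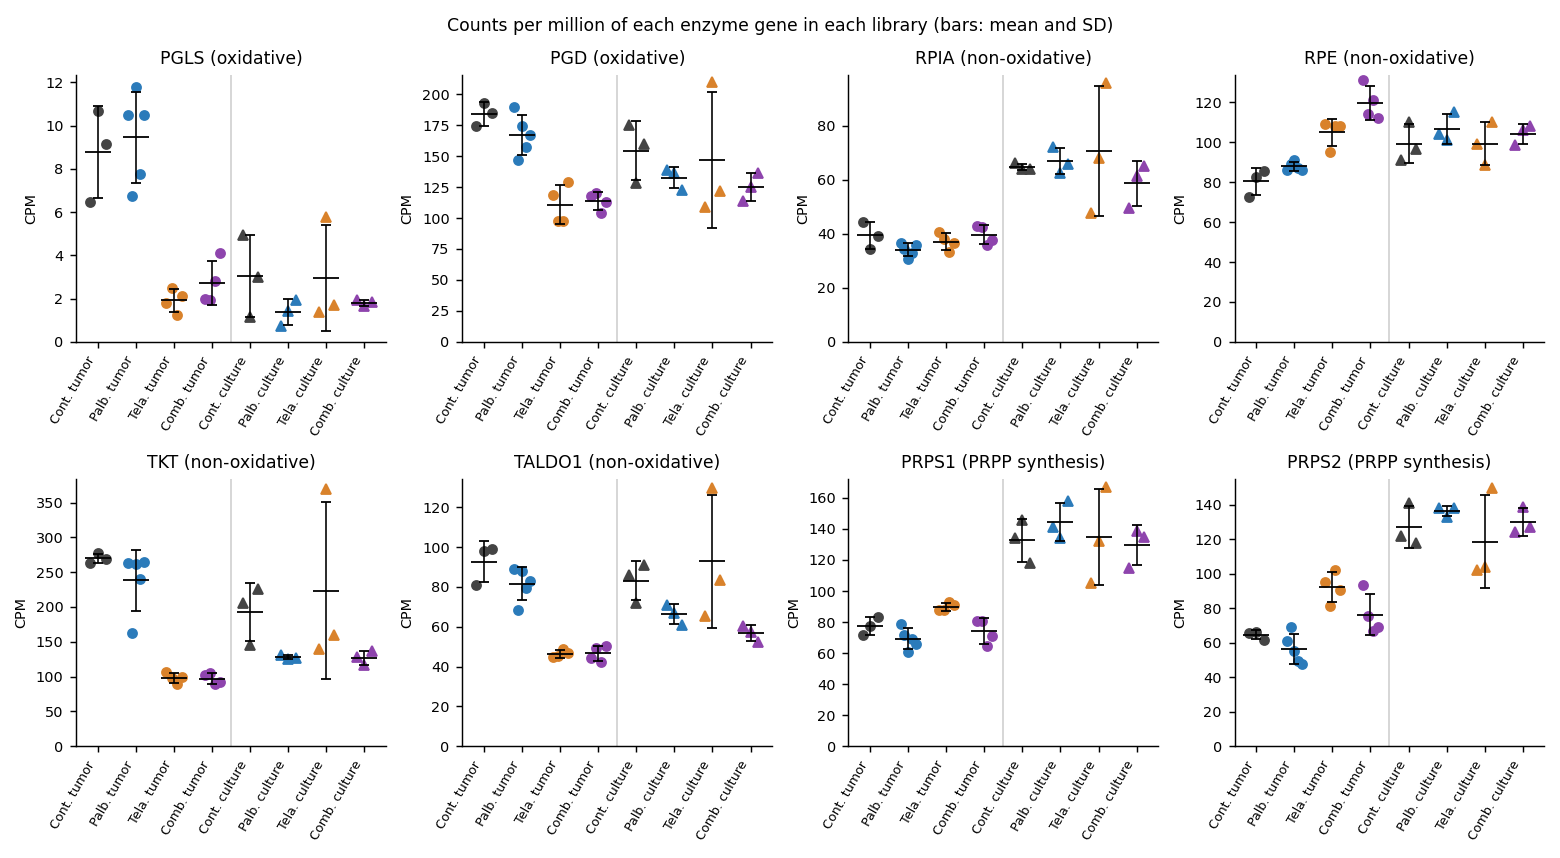
CPM (linear axis from 0) of each of the 8 enzyme genes in each of the 28 libraries, tumors as circles and cultures as triangles, by treatment, with the mean and SD of each group as black bars. TKT, TALDO1, PGD and PGLS are lower in every Telaglenastat and Combination tumor than in every Control tumor, RPE is higher in every one of them, and Telaglenastat culture 2 holds the highest TKT, TALDO1 and PGD level of all libraries.

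The first question was how these genes differed between the residual tumors given Telaglenastat and the Control tumors. The GC slopes of these groups did not overlap (-0.291 to -0.205 and 0.343 to 0.353). What part of the differences goes with the slope was not tested beyond the correction. TKT and TALDO1, the carbon-exchanging enzymes of the non-oxidative branch, and both oxidative enzymes were lower than in Control tumors, while RPE and PRPS2 were higher and RPIA and PRPS1 did not pass the test. As counted, 6 of 8 passed in edgeR's quasi-likelihood test (threshold of 0.05 on p adjusted by Benjamini-Hochberg over all genes tested), 4 lower and 2 higher, where 51.1% of the 14848 genes tested passed, 28.5% lower and 22.6% higher. After the correction 4 of 8 passed, all lower, where 12.9% of all genes passed and 7.42% were lower. The median log2 fold change was -0.52 over the 8 genes and 0.027 over all genes tested, and -0.32 and 0.0037 after the correction.

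TKT had 263, 277 and 269 CPM in the Control tumors and 107, 97.8, 89.4 and 98.8 CPM in the Telaglenastat tumors. The Telaglenastat tumors were uniformly low, and the ranges lay far apart. The fold change was 0.338 (log2 -1.56 ± 0.12 SE, adjusted p = 1.12e-08) as counted and 0.62 after the correction (log2 -0.69 ± 0.086, adjusted p = 1.83e-05). Transketolase needs thiamine diphosphate as its cofactor, and its near copies TKTL1 and TKTL2 had 18 and 11 counts in all libraries together, against 41300 for TKT.

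TALDO1, which completes the sugar exchange with TKT, stood at 81.0, 98.0 and 99.3 CPM in Control tumors and at 44.6, 45.1, 48.7 and 47.0 CPM in Telaglenastat tumors. Every Telaglenastat tumor was below every Control tumor. Its log2 fold change was -1.11 ± 0.096 (adjusted p = 3.12e-08), or -0.49 ± 0.082 corrected (adjusted p = 0.000374).

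In the oxidative branch PGD, which releases CO2 and forms NADPH, had 174, 193 and 185 CPM in Control tumors and 119, 97.4, 97.7 and 129 CPM with Telaglenastat. The groups did not overlap, and the log2 fold change of -0.84 ± 0.098 (adjusted p = 7.88e-07) was -0.41 ± 0.09 after the correction (adjusted p = 0.00338). PGLS, which opens the lactone ring one step earlier, fell from 6.49, 10.7 and 9.15 CPM to 1.81, 2.51, 1.25 and 2.10 CPM. It had the largest log2 fold change of the 8 genes, -2.28 ± 0.30 (adjusted p = 4.11e-06), of which -0.87 ± 0.27 was left after the correction (adjusted p = 0.0354). With a replicate block added to the correction, PGLS missed the threshold (-0.88, adjusted p = 0.0682). A lincRNA on the opposite strand, AC010618.3, shares 9.17% of the exonic bases of PGLS and had 145 counts in all, against 1048 for PGLS. Whether counting used strand is not given in the sources used here, so reads from overlapping genes cannot be assigned with certainty.

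RPE moved the other way as counted. Its levels were 72.6, 82.7 and 85.8 CPM in Control tumors and 109, 94.9, 108 and 108 CPM in Telaglenastat tumors, without overlap. The log2 fold change of 0.27 ± 0.075 (adjusted p = 0.00486) fell to -0.0022 ± 0.074 with the correction (adjusted p = 0.992), and its call was lost. RPE shares 23.76% of its exonic bases with KANSL1L, on the opposite strand. RPIA, the isomerase that feeds ribose 5-phosphate to the PRPP synthetases, had 44.5, 34.4 and 39.2 CPM in Control tumors and 40.7, 38.1, 33.1 and 36.5 CPM with Telaglenastat. These ranges overlapped, and its log2 difference of -0.19 had a 95% interval (here and below, 1.96 SE to either side) of -0.40 to 0.017 (adjusted p = 0.14).

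The PRPP synthetases did not follow TKT and TALDO1. PRPS2 had 65.9, 66.5 and 61.8 CPM in Control tumors and 95.0, 81.5, 102 and 90.7 CPM in Telaglenastat tumors. All Telaglenastat tumors were higher, by 0.40 ± 0.11 on the log2 scale (adjusted p = 0.00637), which missed the threshold after the correction (0.28 ± 0.10, adjusted p = 0.0844) and passed it when a replicate block was added to the correction (0.31, adjusted p = 0.0402). PRPS1 had 71.7, 77.5 and 83.1 CPM against 87.6, 87.6, 92.9 and 91.2 CPM. Its ranges did not overlap either, but its log2 fold change of 0.11 ± 0.087 did not pass (adjusted p = 0.323) and was 0.012 corrected. The ratio of PRPS1 to PRPS2 per kb was 1.26 ± 0.139 (SD, n = 3) in Control tumors, 1.31 ± 0.174 (n = 5) in Palbociclib tumors, 1.03 ± 0.081 (n = 4) in Telaglenastat tumors and 1.03 ± 0.0924 (n = 4) in Combination tumors. The lowest Control ratio, 1.14, was above the highest Telaglenastat ratio, 1.13, by a small margin. The pseudogene PRPS1P2 had 200 counts in all libraries together, against 23856 for PRPS1.

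**Figure D2:**
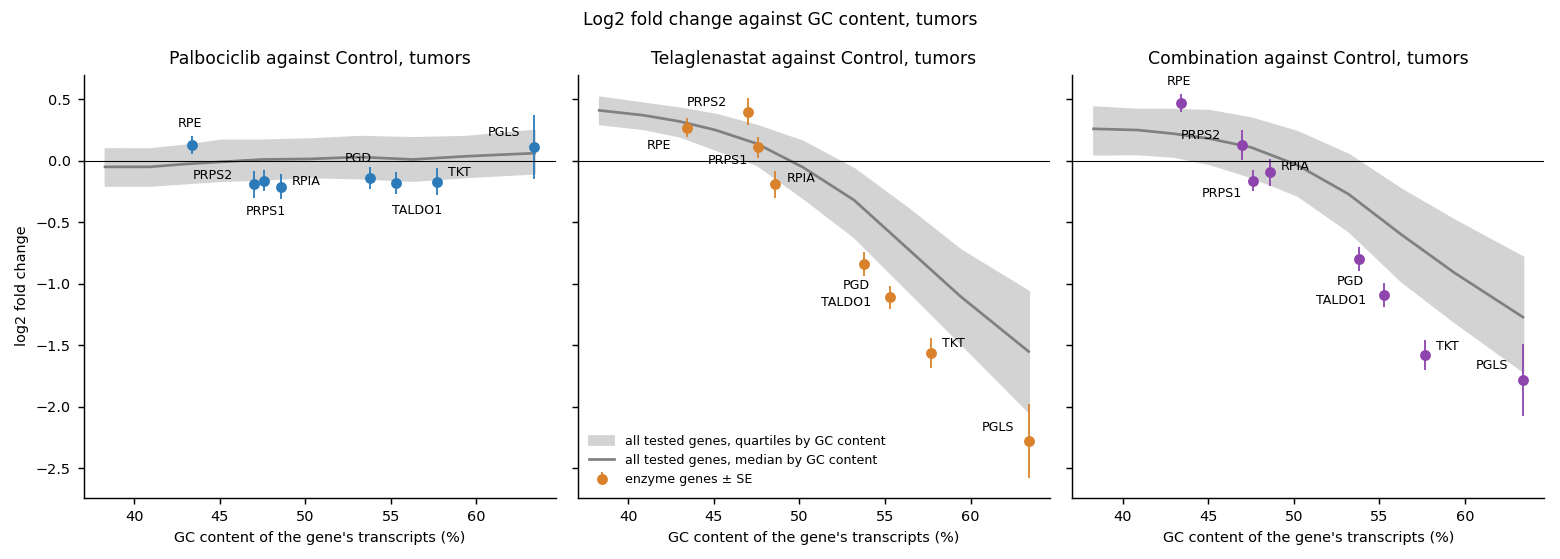
Log2 fold change of each enzyme gene against Control in tumors (points, ± SE) against the GC content of its transcripts in percent, over the median (line) and the middle 50% (grey band) of all tested genes in 10 bins by GC content. With Telaglenastat and the Combination the line falls as GC content rises, from 0.41 to -1.55 and from 0.26 to -1.27, TKT, TALDO1, PGD and PGLS lie below the band, and with Palbociclib the line stays within -0.049 and 0.062.

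The position of the 8 genes within that trend differed by gene. All tested genes were put into 10 bins of like number by GC content, and the bin with 54.8 to 57.8% GC, which holds TKT and TALDO1, had a median log2 fold change of -0.71 with Telaglenastat and quartiles of -1.05 and -0.38, and both genes were below the lower quartile. PGD, in the bin from 51.7 to 54.8% GC, was below its lower quartile of -0.62, and PGLS below the lower quartile of -2.04 of the bin richest in GC. RPE lay inside the quartiles of its bin, 0.20 and 0.43. PRPS2 was above the upper quartile of its bin (0.29), PRPS1 between the quartiles, and RPIA below its lower quartile (-0.031). The correction did not level the bin richest in GC (61.2 to 74.2%) in full. Its corrected median was -0.13 with Telaglenastat and -0.12 with the Combination. The corrected values of PGLS, which lies in that bin, can therefore still hold part of the trend.

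The Combination was compared with the same 3 Control tumors, so its values are not independent of those above. It gave a like picture for TKT, TALDO1 and PGD, a higher RPE, and no call for PRPS2. In all, 5 of 8 genes passed, 4 lower and 1 higher, where 44.5% of all genes passed, 26.9% lower and 17.6% higher. With the correction 5 of 8 passed, 4 lower and 1 higher, where 25.9% of all genes did (13.0% lower and 13.0% higher), but the 5 were not the same, since PGLS missed the threshold and PRPS1 passed it. The median log2 fold change was -0.48 over the 8 genes and -0.036 over all genes, and -0.39 and 0.0021 after the correction.

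TKT was at 102, 105, 89.4 and 92.0 CPM in the Combination tumors, and TALDO1 at 44.3, 49.2, 42.5 and 50.3 CPM. All lay below the Control range, with log2 fold changes of -1.58 ± 0.12 for TKT (adjusted p = 2.47e-08, -0.79 ± 0.086 corrected) and -1.09 ± 0.096 for TALDO1 (adjusted p = 6.34e-08, -0.61 ± 0.082 corrected). PGD had 118, 120, 104 and 113 CPM, and its value of -0.80 ± 0.098 in log2 (adjusted p = 2.09e-06) was -0.48 ± 0.09 corrected (adjusted p = 0.000481). These 3 genes thus kept their call and direction with the correction. PGLS had 1.97, 1.95, 2.81 and 4.12 CPM from 12 to 28 counts, and its log2 fold change of -1.78 ± 0.29 (adjusted p = 5.59e-05) was -0.66 ± 0.25 corrected, past the threshold no longer (adjusted p = 0.0615).

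RPE had its highest mean of the 8 groups in Combination tumors (119 CPM), which overlapped the next group, Palbociclib cultures (107 CPM). In the Combination tumors it stood at 131, 114, 121 and 112 CPM, all above the range of the Control tumors. Its log2 fold change was 0.47 ± 0.075 (adjusted p = 4.43e-05), and here it passed with the correction too (0.26 ± 0.073, adjusted p = 0.013). PRPS1, at 80.9, 80.9, 64.3 and 70.7 CPM, overlapped the Control tumors, and its log2 fold change of -0.16 ± 0.088 passed only with the correction (-0.30 ± 0.086, adjusted p = 0.014). PRPS2 (0.13 ± 0.12, adjusted p = 0.379, above the Control range in all 4 tumors) and RPIA (-0.09 ± 0.11, adjusted p = 0.515) did not pass.

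With Palbociclib alone the levels of the 8 genes stayed near those of Control tumors, and no difference passed the test. With edgeR 0 of 8 passed (adjusted p = 0.287 or more), where 6.16% of all genes did, and it was 0 as well with DESeq2 or with the correction, where 7.79% of all genes passed. The number at an unadjusted p under 0.05 was 0 as counted and 4 with the correction. The log2 fold changes ran from -0.21 ± 0.10 for RPIA to 0.13 ± 0.072 for RPE, whose 85.9 to 91.2 CPM lay just above the highest Control tumor (85.8 CPM). TKT had 263, 162, 262, 240 and 265 CPM in Palbociclib tumors. The 4 others lay near the Control tumors, and tumor 2, which also had the lowest GC slope of the group, was far below them. Without it the log2 fold change of TKT was -0.06 in place of -0.17, and still none of the 8 passed.

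**Figure D3:**
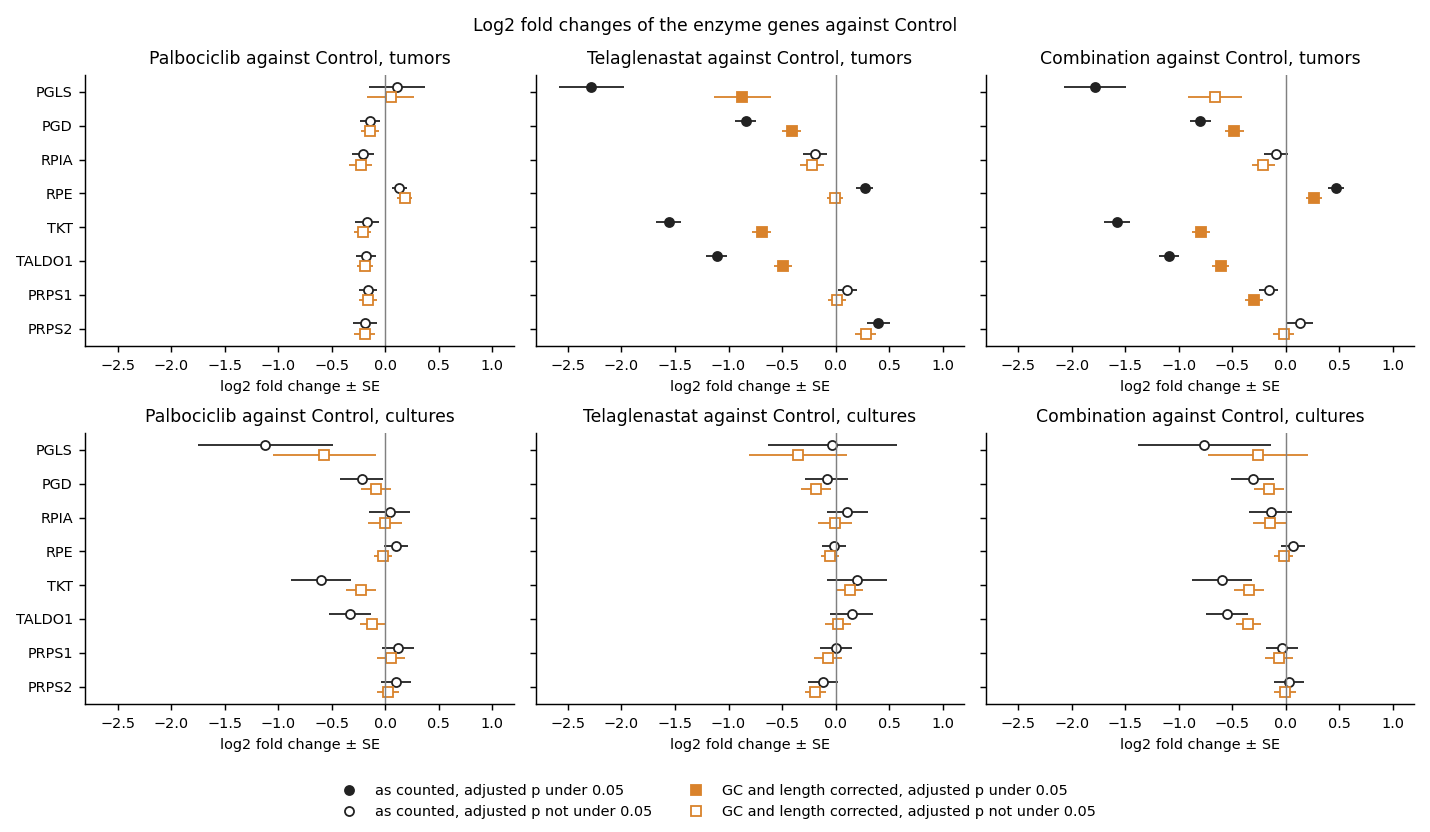
Log2 fold change (± SE) of each enzyme gene against Control for the 3 treatments, tumors above and cultures below, as counted (black circles) and after correction for GC content and gene length (orange squares), filled where the adjusted p is under 0.05. With Telaglenastat and the Combination in tumors the 4 lower genes move toward 0 with the correction, as TKT does from -1.56 to -0.69, and no symbol is filled with Palbociclib or in cultures.

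Set against single drugs, the Combination tumors differed from Palbociclib tumors in the 5 genes that differed from Control and in PRPS2. The 6 of 8 that passed, where 47.6% of all genes did (27.5% lower and 20.1% higher), were TKT (log2 -1.40 ± 0.11), TALDO1 (-0.91 ± 0.087), PGD (-0.66 ± 0.088) and PGLS (-1.89 ± 0.27), which were lower, and RPE (0.33 ± 0.065) and PRPS2 (0.32 ± 0.10), which were higher. After the correction the 4 lower genes passed, at -0.58, -0.43, -0.34 and -0.71, where 14.5% of all genes did (7.64% lower), and RPE (0.08) and PRPS2 (0.17) did not. As counted, PRPS2 lost its call without Combination tumor 1 (0.23, adjusted p = 0.0689).

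Between Combination and Telaglenastat tumors 1 of 8 genes passed, where 18.8% of all genes did (9.89% lower). It was PRPS1, lower in every Combination tumor than in any Telaglenastat tumor, with a log2 difference of -0.27 ± 0.082 (adjusted p = 0.0252) and of -0.31 ± 0.081 corrected (adjusted p = 0.0111). Its call was lost without Telaglenastat tumor 3 or 4 or without Combination tumor 3 or 4, at adjusted p values of 0.0527 to 0.108. PRPS2 went the same way at -0.27 ± 0.11 (adjusted p = 0.0846), with 93.6, 75.6, 66.9 and 69.3 CPM in Combination tumors, and passed only with the correction (-0.30, adjusted p = 0.0391), as did RPE (0.26, adjusted p = 0.0116, higher in the Combination). Of all genes 15.4% passed with the correction, 6.98% lower and 8.45% higher. TKT differed by -0.012 on the log2 scale, with a 95% interval of -0.24 to 0.22, TALDO1 by 0.016 (-0.17 to 0.20) and PGD by 0.04 (-0.14 to 0.22).

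Whether the drugs acted additively on the log2 scale was tested by the interaction of Palbociclib and Telaglenastat in tumors. With edgeR 0 of 8 passed, where 0.0673% of all genes did, and 0 passed with DESeq2, which gave no adjusted p for PGLS and RPIA, or with the correction (0.0539% of all genes). As counted, 1 had an unadjusted p under 0.05, and with the correction 0. That gene was RPIA, with an interaction of 0.31 ± 0.14 (unadjusted p = 0.0441 from edgeR's fit, adjusted p = 0.513).

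In the cultures, grown without drug, 0 of 8 genes passed in each of the 5 comparisons with edgeR, DESeq2 or the correction (DESeq2 gave no adjusted p for PGLS in the comparisons with Telaglenastat cultures). The share of all 13985 genes that passed was 0.00715% for Combination against Control, 1 gene, and 0% in the 4 others, all as counted with edgeR. With the correction 1 gene (0.00715%) passed for Combination against Control and 1 for Combination against Palbociclib, and DESeq2 called 0 genes in Palbociclib, 13 in Telaglenastat and 3 in Combination cultures against Control, and 3 and 139 in Combination cultures against Palbociclib and Telaglenastat. At an unadjusted p under 0.05 there were 0 members for Palbociclib and Telaglenastat against Control, 1 for the Combination against Control, 0 for the Combination against Palbociclib and 2 for the Combination against Telaglenastat. TKT had 205, 146 and 226 CPM in Control cultures, 131, 125 and 127 CPM in Palbociclib cultures, 140, 370 and 160 CPM in Telaglenastat cultures and 128, 116 and 136 CPM in Combination cultures. The Palbociclib and Combination cultures were below all Control cultures, and Telaglenastat culture 2, the library with the highest GC slope of the cultures, was above every other library.

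The log2 fold change of TKT was -0.60 ± 0.28 in Palbociclib cultures (adjusted p = 0.795) and -0.60 ± 0.28 in Combination cultures (adjusted p = 0.681), and -0.23 and -0.34 with the correction. Both passed when no filter on low counts was used (adjusted p = 0.0188 and 0.0111). TALDO1 had 60.6, 57.5 and 52.6 CPM in Combination cultures against 86.1, 72.1 and 91.0 CPM in Control cultures, without overlap, which gave -0.55 ± 0.20 in log2 (adjusted p = 0.681), or -0.35 corrected. In Telaglenastat cultures the values of TKT (0.20 ± 0.28) and TALDO1 (0.15 ± 0.20) were on the other side of 0, and without culture 2 they were -0.37 and -0.17. Against Telaglenastat cultures, the Combination cultures had -0.80 ± 0.28 for TKT (adjusted p = 0.312) and -0.70 ± 0.20 for TALDO1 (adjusted p = 0.277). Both passed without the filter (adjusted p = 3e-06 and 0.000747) or without Telaglenastat culture 1 (adjusted p = 0.037 and 0.02), and came to -0.24 and -0.38 without culture 2.

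**Figure D4:**
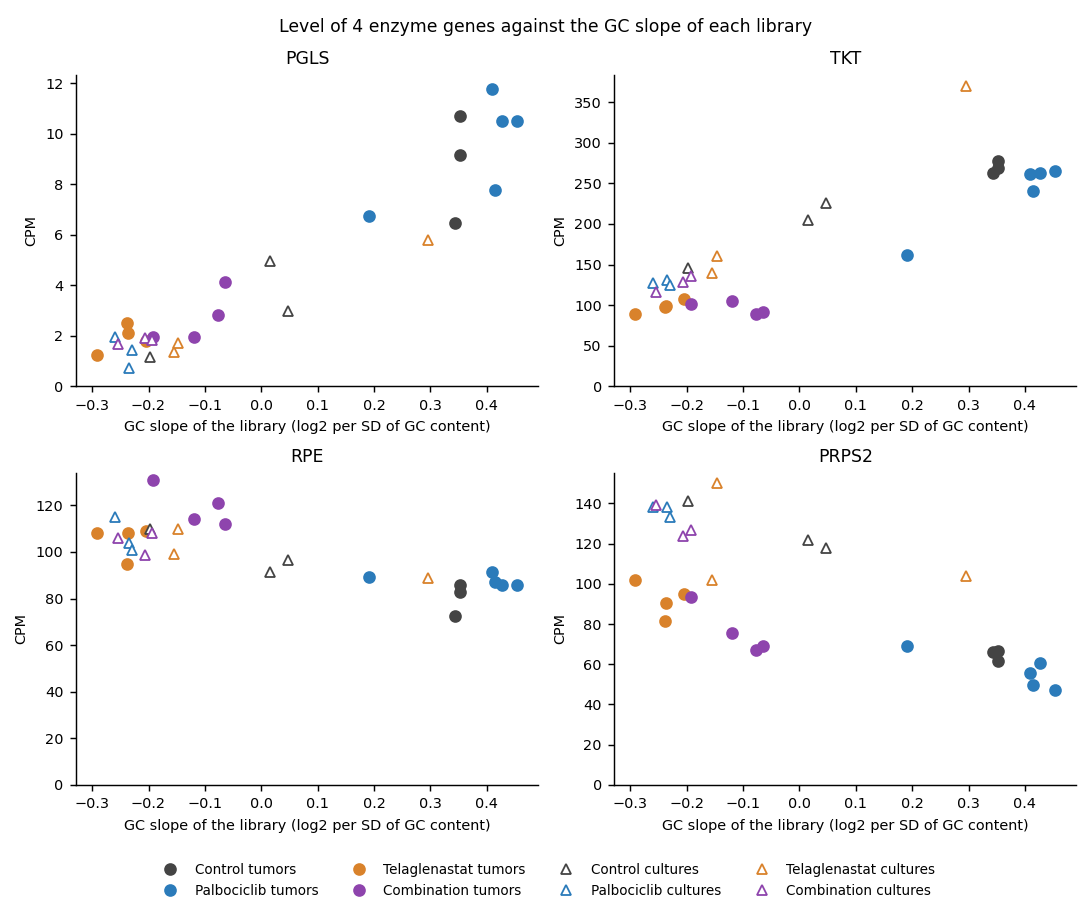
Level in CPM (linear axis from 0) of PGLS, TKT, RPE and PRPS2 in each of the 28 libraries against the GC slope of that library (log2 per SD of GC content), tumors as filled circles and cultures as open triangles. PGLS and TKT are high where the slope is high, with TKT at 370 CPM in Telaglenastat culture 2 (slope 0.295) and at 162 CPM in Palbociclib tumor 2 (0.191), and among the tumors RPE and PRPS2 run the other way.

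The difference between the response in tumors and that in cultures was tested in a fit of all 28 libraries. For Telaglenastat 6 of 8 genes passed, 4 with a lower and 2 with a higher response in tumors, where 34.1% of all genes did (18.5% lower and 15.6% higher). The response in tumors was lower by 1.68 ± 0.31 on the log2 scale for TKT (log2 difference -1.68, adjusted p = 0.000335), and the differences were -1.17 ± 0.21 for TALDO1, -0.67 ± 0.22 for PGD, -2.18 ± 0.63 for PGLS, 0.38 ± 0.13 for RPE and 0.61 ± 0.19 for PRPS2. After the correction, TKT (-0.81 ± 0.16, adjusted p = 0.00465) and TALDO1 (-0.51 ± 0.14, adjusted p = 0.0391) passed, where 3.81% of all genes did (2.61% lower). Without Telaglenastat culture 2 the same pair was left as counted (TKT -1.10, adjusted p = 0.000741, and TALDO1 -0.84, adjusted p = 0.00112), and without Control culture 2 there were 3 calls. For the Combination, RPE passed (0.50 ± 0.13, adjusted p = 0.0349), where 2.91% of all genes did (2.11% higher), and with the correction 0 of 8 passed (RPE 0.30, adjusted p = 0.144), where 2.64% of all genes did, with 2 members at an unadjusted p under 0.05. For Palbociclib 0 of 8 passed with edgeR, DESeq2 or the correction, where 1.39% of all genes did as counted and 0.963% corrected, with 0 members at an unadjusted p under 0.05 in either fit.

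Vehicle-treated tumors and the cultures named after that treatment differed in another set of the 8 genes. In Control tumors against Control cultures, 5 of 8 passed, where 45.9% of all 15466 genes did, 22.8% lower and 23.1% higher. PRPS2 was at 65.9, 66.5 and 61.8 CPM in the tumors and 122, 141 and 118 CPM in the cultures, and PRPS1 at 71.7, 77.5 and 83.1 against 134, 146 and 118 CPM. Both PRPP synthetases were lower in every tumor, at log2 fold changes of -0.97 ± 0.14 (adjusted p = 2.88e-06) and -0.78 ± 0.13 (adjusted p = 1.79e-05), and RPIA was lower as well (-0.72 ± 0.16, adjusted p = 0.000534). These 3 kept their call with the correction, at -0.83, -0.66 and -0.63, where 40.5% of all genes passed. PGLS was higher in tumors (1.53 ± 0.45, adjusted p = 0.00634) and RPE lower (-0.30 ± 0.094, adjusted p = 0.00915), but the correction took both calls away (adjusted p = 0.0915 and 0.774), and so did leaving out Control culture 2. TKT (0.49 ± 0.22, adjusted p = 0.0744), TALDO1 (0.16) and PGD (0.25) did not pass, though TKT did with DESeq2 (adjusted p = 0.0293), and TKT and PGD did without the filter on low counts.

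Ranked over the 8 groups, few neighbors were separate. RPIA, PRPS1 and PRPS2 had their 4 highest means in the 4 culture groups. For PRPS1 (130 CPM in Combination cultures, 89.8 in Telaglenastat tumors) and RPIA (58.7 and 39.7 CPM in Combination cultures and tumors) the lowest culture group and the highest tumor group did not overlap, while for PRPS2 (118 and 92.3 CPM in Telaglenastat cultures and tumors) they did. TKT had its 2 lowest means in Combination (97.3 CPM) and Telaglenastat tumors (98.3 CPM), which overlapped each other and not the next group, Combination cultures (127 CPM). PGD overlapped its neighbor at every step, from 184 CPM in Control tumors to 111 CPM in Telaglenastat tumors.

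Over the 16 tumors, which share treatment groups and GC slopes, the levels of TKT, TALDO1 and PGD ran together, with Pearson's r on log2 CPM of 0.98 for TKT and TALDO1 (0.929 corrected) and 0.968 for TKT and PGD (0.909). RPIA had an r of 0.135 to TKT (0.389 corrected) and 0.179 to PGD (0.434 corrected), and PRPS1 of -0.193 to TKT (0.358) and -0.153 to PGD (0.415). Of all tested genes, the pattern most like that of TKT was that of CLPTM1 (r = 0.993, 0.886 corrected), the most like TALDO1 were RBM42 (0.989, 0.961 corrected) and the glycolytic isomerase TPI1 (0.987, 0.892 corrected), and the most like PGD was CFL1 (0.986), whose likeness was 0.119 corrected. For PRPS1 they were BUB1 (0.904) and BLM (0.889), for PRPS2 HNRNPA3 (0.963) and YWHAE (0.962), and for RPE UBE2J1 (0.957). The closest to PGLS was PPDPF (0.986), and RPIA had no gene above 0.784 (RP11-458J1.1).

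The genes around the pathway were read from lists. Of 9 genes that the non-oxidative branch shares with glycolysis, 6 were tested, and all 6 were lower with Telaglenastat (median log2 fold change -1.29) and with the Combination (-1.30), 4 and 5 of them with the correction too (medians -0.56 and -0.62). Of all genes 28.5% and 26.9% were lower as counted, and 7.42% and 13.0% with the correction. The largest changes with Telaglenastat were in the aldolase ALDOA (-2.15 ± 0.19, -1.03 corrected), the phosphofructokinase PFKL (-2.02 ± 0.18, -0.59 corrected) and GPI, which interconverts glucose 6-phosphate and fructose 6-phosphate (-1.39 ± 0.14, -0.67 corrected). With Palbociclib 1 of the 6 passed, ALDOC (-0.39), where 6.16% of all genes did.

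Of 15 other pathway genes, 10 were tested, and with Telaglenastat 4 were lower and 1 higher (median -0.095), and 1 lower with the correction, shares near the 51.1% and 12.9% of all genes called. GLYCTK (-2.51 ± 0.52), the sedoheptulose kinase SHPK (-0.85 ± 0.19) and H6PD, the pathway's dehydrogenase of the endoplasmic reticulum (-0.56 ± 0.14), lost their calls with the correction, and PGM1 kept it (-0.38 ± 0.074, -0.33 corrected). With the Combination 3 were lower and 1 higher, where 26.9% of all genes were lower and 17.6% higher. With the correction SHPK alone was called (-0.63), where 25.9% of all genes were. Of 8 enzymes that use PRPP, 7 were tested, and with Telaglenastat 3 were higher and 2 lower (median 0.27), and 0 and 2 with the correction, where 22.6% and 28.5% of all genes were higher and lower as counted and 7.42% were lower with the correction. The salvage enzymes NAPRT (-2.65 ± 0.34, -1.01 corrected) and APRT (-2.33 ± 0.22, -0.84 corrected) kept their calls with the correction, and PPAT, which opens purine synthesis (0.48 ± 0.084), HPRT1 and NAMPT did not. None of these 3 lists had a call in cultures.

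The promoters were searched on both strands, in RefSeq windows from 250 bases before to 50 after the gene start, for the core of the antioxidant response element, TGACNNNGC, through which NRF2 acts, and for the E-box CACGTG, which MYC binds. All 8 members matched a window. The first motif was found in 2 of the 8, PGD and RPE, and in 13.3% of 35116 windows, and the second in 0 of the 8 and in 7.26% of windows. The 60 bases around each match are shown because these are the members with a match, and lie at chr1:10398837-10398896 and chr2:210002461-210002520 of GRCh38.p14 on the plus strand, with the match in capitals (on the opposite strand in PGD).
PGD: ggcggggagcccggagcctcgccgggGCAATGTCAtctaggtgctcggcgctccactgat
RPE: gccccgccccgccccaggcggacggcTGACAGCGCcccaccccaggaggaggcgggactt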

How the data were processed

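The authors purified poly(A) RNA, made dUTP strand-marked libraries, sequenced 60-base single-end reads and counted reads per gene. The submitters' processing notes name CASAVA 1.8, STAR and hg38. The annotation release and the use of strand in counting are not given in the sources used here. The deposited values are raw counts per gene, and all 28 columns were used. Gene IDs were matched to GENCODE 29 (57940 of 58278), which supplied positions, length and GC content. Members and lists were chosen with earlier results of these data known. Tumors, cultures and all 28 libraries were each fitted by group with edgeR 4.0.16 in R 4.3.3 (filterByExpr with a minimum count of 10, TMM, quasi-likelihood test, threshold 0.05). The study used DESeq2, tried here (version 1.42.0) as an alternative. The correction removed from each library a robust spline trend (MASS; 5 degrees of freedom for GC content, 3 for log length). The fits were tested on simulated data. Named were all members, the called genes with the largest fold from each list, and the genes of highest correlation with a member. Replicates are separate tumors or lines. Alternatives were DESeq2 and its size factors, no filter, the correction, a replicate block, the compared groups only and leaving out each library.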

Additional observations from a re-analysis of the deposited data

Results flagged for a closer look

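In groups of 4 or 5 libraries, 2 of 24 groups of member values held a library set apart from the rest by Dixon's criterion, which flags about 5% of groups by chance. RPE was lowest in Telaglenastat tumor 2, at 94.9 CPM, where the other Telaglenastat tumors were at 108 to 109 CPM. TKT was lowest in Palbociclib tumor 2, at 162 CPM, where the others were at 240 to 265 CPM, and this library had the lowest GC slope of its group (0.191).

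The response to Telaglenastat differed between tumors and cultures by the interaction term of edgeR's fit for PGLS (-2.18), PGD (-0.67), RPE (0.38), TKT (-1.68), TALDO1 (-1.17) and PRPS2 (0.61), all as log2 differences, tumors minus cultures. Once corrected for GC content and length, TKT (-0.81) and TALDO1 (-0.51) remained called. The response to the Combination differed for RPE (0.50), and its call did not remain with the correction. All these differences share the 3 Control tumors and the 3 Control cultures, and the GC slopes differed between the groups they compare, whose part was not tested beyond the correction.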

How the results depend on the processing

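Of 120 results (8 genes in 15 comparisons), 30 passed the threshold. Of these, 14 kept their sign but lost the call in an alternative other than leaving out a library. They lost it with the GC and length correction in 11 cases, with DESeq2 in 0 and with the replicate block alone in 0. Besides these, 1 called result, RPE in Telaglenastat against Control tumors, lost its call with the correction while changing sign. When 1 library was left out 9 lost the call, while 13 that had not passed did so in an alternative. For Combination against Palbociclib tumors the count of 6 was 3 with the replicate block and the correction, and 5 to 6 with 1 library left out. For Combination against Telaglenastat tumors the count of 1 became 3 with the correction, 3 with the block as well, 2 with DESeq2, 2 with its size factors, 2 without the filter, and 0 to 2 with 1 library left out (0 without Telaglenastat tumor 3 or 4 or Combination tumor 3, 2 without Combination tumor 1 or 2). In cultures, the count of 0 became, without the filter, 1 for Palbociclib against Control, 1 for Combination against Control and 2 for Combination against Telaglenastat, where it was 0 to 2 with 1 library left out (2 without Telaglenastat culture 1). For Control tumors against Control cultures the count of 5 was 3 with the correction, 3 with the block as well, 6 with DESeq2, 6 with its size factors (TKT gained in both), 6 without the filter (TKT and PGD gained, RPE lost), and 3 to 5 with 1 library left out (3 without Control culture 2). For the Telaglenastat response in tumors against cultures the count of 6 was 2 with the correction, 1 with the block as well, 5 with DESeq2 size factors (RPE lost), 4 without the filter (RPE and PRPS2 lost), and 2 to 6 with 1 library left out (2 without Telaglenastat culture 2, 3 without Control culture 2). For the Combination response the count of 1 was 0 with the correction, 0 with the block as well, 2 with DESeq2, 0 with its size factors, 3 without the filter, and 0 to 1 with 1 library left out (0 without Control culture 2, any Combination culture, any Control tumor, or Combination tumor 1 or 3). RPE in Telaglenastat against Control tumors reversed to -0.0022 with the correction and to -0.0095 with the block as well. In Combination against Control tumors, PRPS2 (-0.02 with the correction) and RPIA (-0.19 to 0.0067 with 1 library left out, above 0 without Control tumor 1) changed sign, neither having passed. Beyond what the correction itself takes out, the causes were not tested. Libraries with the same replicate number showed no clear common deviation (correlations of -0.128 to 0.0896 in tumors and -0.423 to 0.14 in cultures, with 6 of 15 and 1 of 12 libraries closest to their own number). The samples were therefore not treated as paired, though such correlations in small groups cannot exclude a pairing. Depth limits PGLS most, with 6 to 64 counts in a culture.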
